A study of Rattus norvegicus with 16 samples.

Results

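The frontal cortex of rats injected with 5-AzaD (5-aza-2′-deoxycytidine, also called decitabine) was compared with that of rats that ate the same high fat diet and were not injected. The libraries were chosen by their stated treatment, 4 in the HF_5AzaD group and 4 in the HF group of the 16 in the series, and 14824 of 28168 loci were tested, those that averaged 1 FPKM or more across all 16 libraries and had a status of OK in all. FPKM counts sequenced fragments after scaling for the length of the transcript and the number of mapped fragments in the library. Both groups were male Sprague-Dawley rats, aged 11 weeks when the diet began, and both ate the high fat diet for 7 weeks. The HF_5AzaD rats were also injected into the abdomen for 10 days with 5-AzaD dissolved in PBS, a saline buffer, at a dose not given in the sources used here. The HF rats received neither the buffer nor the needle, so that 5-AzaD, PBS and the injections themselves cannot be told apart in this comparison. Values of the 4 libraries of the HF_PBS group, with the same diet and 10 days of PBS alone, are therefore given beside the main results. Groups follow the treatment stated for each library. The series' design text gives the letters HFD to the diet alone, whereas the titles give them to the libraries stated to be PBS-injected, and if the design text's use held for the titles, HF and HF_PBS would change places and the comparison below would be one against the vehicle.

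5-AzaD is a cytidine analogue that cells phosphorylate with deoxycytidine kinase and build into newly made DNA, where it traps DNA methyltransferases. Dnmt1, which copies methylation onto new strands together with Uhrf1, is its main target, and genes silenced by methylation, such as germline and imprinted genes, are the classical readout in dividing cells. Cortical neurons no longer divide, while glia, vessel cells and the meninges still can.

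In total 2112 loci, 14.2% of those tested, differed between the groups at an adjusted p under 0.05 (limma on log2(FPKM + 0.5), Benjamini-Hochberg over 14824 loci). Of these, 980 (6.61%) were higher and 1132 (7.64%) were lower in HF_5AzaD. The balance of directions turned when libraries were scaled to the same median (1153 higher, 1020 lower) and with a filter of 5 FPKM (844 higher, 824 lower). The differences were mostly modest, with a median log2 difference of 0.53 among the higher and -0.70 among the lower loci, and 125 higher and 299 lower loci differed at least 2-fold on the log2(FPKM + 0.5) scale. The median over all tested loci was 0.02. The 4 libraries of a side lay entirely above or below the other side at 2630 loci (17.7%), 8.97% higher and 8.78% lower, and 1674 of them were among the 2112. The same fit gave 3536 loci (23.9%) for HF_PBS against HF, 1580 higher (10.7%) and 1956 lower (13.2%), and 0 (0%) for HF_5AzaD against HF_PBS, where the lowest adjusted p was 0.237 and 1100 loci (7.42%) had an unadjusted p under 0.05. The contrasts against HF share the HF libraries. In HF_5AzaD against HF, the shares over all loci include 3791 loci without a gene symbol, 224 of them called higher and 474 lower. Of the 11033 loci with a symbol, 756 were called higher and 658 lower. Members of the gene lists below all have a symbol, so all loci are not a like set for them.

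The count rested on a few libraries. Without HF 6 it fell to 395 and without HF_5AzaD 7 to 400, and without both to 30, while it ranged from 1174 to 2306 without any other single library of the pair of groups. HF 6 was the highest HF library at 77.2% of the loci called lower, against 25.4% of the uncalled, and HF_5AzaD 7 was the lowest of its group at 62.5% of them. A fit to these 8 libraries alone called 27 loci, and 1965 had an adjusted p under 0.1 there. All 2112 loci kept their direction in each of these fits. Of 151 called genes and merged loci followed, 40 passed in every fit that left out 1 library, and the number that missed the threshold was 111 without HF 6, 109 without HF_5AzaD 7, 49 without HF 8, 43 without HF_5AzaD 3, 27 without HF 5, 22 without HF_5AzaD 5, 14 without HF 7 and 13 without HF_5AzaD 6. Calls lost without HF 6 or HF_5AzaD 7 are marked below for these 2 libraries, and some of these genes were also lost without others. The files give no sequencing depth. Relative to HF 7, the spacing of the lowest values put the HF libraries at 94 to 113% and the HF_5AzaD libraries at 108 to 139% of its depth, and 23064 to 23632 loci were above 0 per library. The labels do not say that the libraries of a group came from separate animals, so p-values reflect only how these libraries scatter, and that scatter may be technical.

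**Figure D1:**
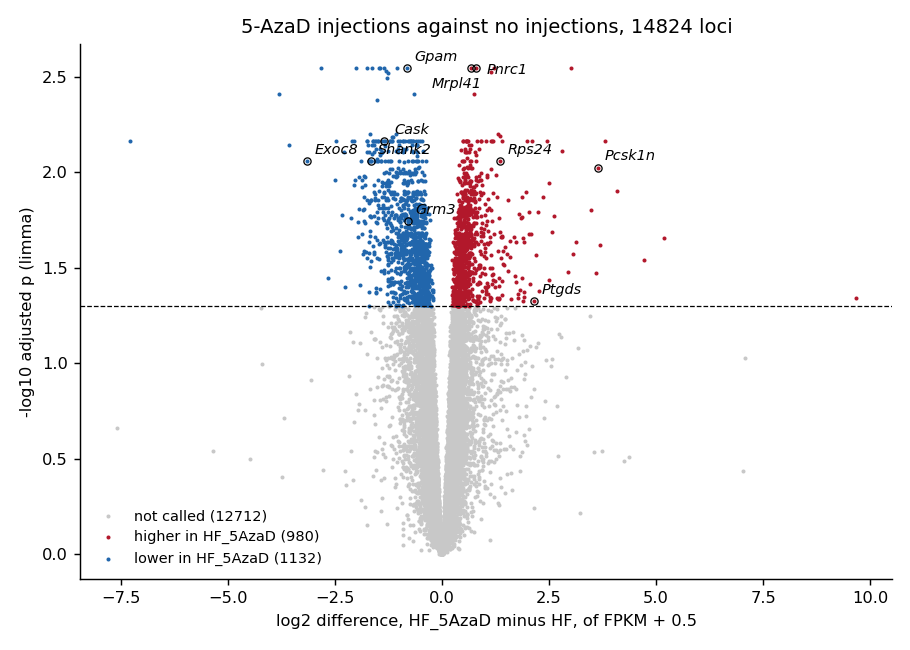
Each dot is 1 of the 14824 loci tested. The horizontal axis is the log2 difference HF_5AzaD minus HF of FPKM + 0.5 and the vertical axis is -log10 of limma's adjusted p, with the dashed line at 0.05. The 980 red loci were called higher and the 1132 blue loci lower in HF_5AzaD, and circles mark genes described in the text.

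The tissue expressed markers of its main cells, with means over the 8 libraries of 1945 FPKM for Nrgn of excitatory neurons and 2452 FPKM for Mbp of myelin. Markers of some cells outside the cortical grey matter differed between the groups and are given first. The list for mural and leptomeningeal cells (vessel wall and meninges) summed to 343 to 754 FPKM in the HF and 1038 to 4426 FPKM in the HF_5AzaD libraries, so the sums did not overlap. Libraries chow 1 to 4, from rats on chow diet without injections, summed to 1599, 1001, 495 and 360 FPKM. Chow 1 thus lay within the range of HF_5AzaD. Of the list's 23 tested members, 21 were higher on average, against 51.7% of all loci, with a median log2 difference of 1.16. In the test 3 were called higher, 13% against 6.61% of all loci. Ptgds, a prostaglandin D synthase of the meninges, makes up much of that sum, at 158, 509, 445 and 489.5 FPKM in HF 5, 6, 7 and 8 and at 731, 1989, 1366 and 3468 FPKM in HF_5AzaD 3, 5, 6 and 7. Every injected library was above every HF library, and Ptgds rose by 2.15 ± 0.68 (log2, SE; adjusted p = 0.047). Slc6a13, a GABA transporter of the meninges, rose by 1.42 (adjusted p = 0.026), and Vtn, vitronectin made by pericytes, by 0.88 (adjusted p = 0.0443). None of the 3 passed without HF_5AzaD 7 or without HF 6 (adjusted p from 0.0819 to 0.153), and Ptgds passed in 1 of the 8 fits that left out 1 library. The collagen gene Col1a2 and Ogn of the same list were at 0 in all 8 libraries. The HF_PBS libraries summed to 637, 3478, 946 and 906 FPKM, with library 2 far above the others, and had a median difference from HF of 0.55 over the list. In limma 0 members passed there.

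The sums of blood markers did not overlap either. They were 385 to 682 FPKM in HF and 719.8 to 1278 FPKM in HF_5AzaD, led by the haemoglobin gene Hba1. The HF_PBS libraries had 289, 740, 246 and 630 FPKM, and the median difference over the 4 tested members was 0.73 for HF_5AzaD and -0.37 for HF_PBS, each against HF. In limma 0 of 4 tested members passed and 2 had an unadjusted p under 0.05. Markers of the striatum, which lies next to the frontal cortex, summed to 1843 FPKM in HF 8 against 341 to 408 FPKM in the other HF libraries and 346 to 462 FPKM in HF_5AzaD. The HF_PBS libraries 1 to 4 had sums of 354, 977, 1042 and 1251 FPKM. Of 18 tested striatal genes, 2 fell (11.1%, against 7.64% of all loci). Pde10a, a phosphodiesterase of striatal neurons, fell by 1.25 (adjusted p = 0.0363) and the merged locus of Eif4e3 and Foxp1 by 0.53 (adjusted p = 0.0238). Neither passed without HF 6 or without HF_5AzaD 7 (adjusted p from 0.0862 to 0.116), nor without HF 8. Among the other lists, 0 of 28 oligodendrocyte and myelin genes passed (median -0.16, limma unadjusted p under 0.05 for 1), 1 of 20 astrocyte genes rose (Atp1b2), 1 of 21 microglial genes rose (Cd74, the MHC class II invariant chain, by 1.83, adjusted p = 0.0411), 1 of 21 endothelial genes rose (Ramp2, a receptor-modifying protein, by 0.64) and 0 of 14 excitatory neuron genes passed (4 at an unadjusted p under 0.05). The shares called higher were 5%, 4.76% and 4.76% for astrocytes, microglia and endothelium, against 6.61% of all loci. Of the precursor, interneuron and choroid plexus lists, 1 of 10 (Gpr17), 1 of 22 (Erbb4) and 1 of 7 genes (Kcnj13) fell. These were 10%, 4.55% and 14.3%, against 7.64% of all loci. None of the 15 thalamic, 7 hypothalamic or 7 olfactory genes passed (1, 0 and 0 at an unadjusted p under 0.05). The 6 calls of these glial, endothelial, interneuron and choroid plexus lists were all lost without HF 6 and without HF_5AzaD 7 (adjusted p from 0.0519 to 0.138), and Atp1b2 and Cd74 each passed in 1 of the 8 fits that left out 1 library. In bulk tissue, fewer cells of a type and less RNA per cell cannot be told apart. The part of these cell types in the results below was not tested.

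The loci least dependent on single libraries were few. In all 8 fits that left out 1 library, 347 loci (130 higher, 217 lower) passed, 180 of them with a gene symbol, and 5 loci passed in every alternative tried, all lower. Gpam was the only 1 of the 5 with a symbol, and it and the next 3 genes were picked after their values were seen. Gpam encodes the mitochondrial glycerol-3-phosphate acyltransferase that commits fatty acids to triglyceride and phospholipid synthesis. It was at 17.2, 19.7, 19.7 and 18.9 FPKM in the HF and 10.8, 9.65, 12.4 and 9.35 FPKM in the HF_5AzaD libraries, with no overlap, and fell by 0.82 ± 0.10 (log2, SE; adjusted p = 0.00286). In HF_PBS it averaged 14.3 ± 1.85 FPKM (SD, n = 4), -0.39 from HF (limma adjusted p = 0.0158), and the difference between the injected groups was -0.42 (adjusted p = 0.586, unadjusted 0.00104).

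Pnrc1, a nuclear receptor coactivator that also acts in mRNA decapping, was at 27.1, 23.3, 25.2 and 25.6 FPKM in HF and 44.7, 42.6, 38.2 and 51.3 FPKM in HF_5AzaD. The injected libraries all lay above 38 FPKM and the HF libraries below 28 FPKM, a rise of 0.79 ± 0.10 (adjusted p = 0.00286). Mrpl41, a protein of the large mitochondrial ribosomal subunit, was at 30.3, 29.2, 27.7 and 32.5 FPKM and 48.3, 48.4, 43.2 and 54.1 FPKM, again without overlap, and rose by 0.69 ± 0.09 (adjusted p = 0.00286). Sarnp, an mRNA export factor, ranged over 21.2 to 22.6 FPKM in HF and 34.5 to 42.4 FPKM in HF_5AzaD and rose by 0.74 ± 0.11 (adjusted p = 0.0039). These 3 also passed in the fit of the 8 libraries alone (adjusted p from 0.0454 to 0.0471) and without both HF 6 and HF_5AzaD 7 (adjusted p from 0.0243 to 0.0448). The differences of HF_PBS from HF were 0.76 for Pnrc1, 0.87 for Mrpl41 and 0.70 for Sarnp.

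Genes of the ribosome, the respiratory chain and the proteasome were called higher more often than the 6.61% of all loci. Of 63 tested genes for cytosolic ribosomal proteins (80 listed), 20 rose and 0 fell, with a median log2 difference of 0.47 against 0.02 over all loci. Rps24, a protein of the small subunit, was at 131, 88.8, 173 and 148 FPKM in HF and 297, 310.3, 301 and 479.7 FPKM in HF_5AzaD. HF 6 was the lowest and HF_5AzaD 7 the highest of the 8, the groups did not overlap, and the rise was 1.37 ± 0.26 (adjusted p = 0.00877). Rpl10a ranged over 5.14 to 8.82 FPKM in HF and 12.9 to 22.9 FPKM in HF_5AzaD and rose by 1.19. Rps15a and Rpl6 were also lower in FPKM, at 5.88 to 7.68 and 3.38 to 5.83 in HF, and rose by 1.14 and 0.88. These 4 passed in every fit that left out 1 library. Ribosomal protein genes have many near-identical copies in the genome, among which the authors' alignment could have split reads, so their single values are uncertain. Without HF 6 the count was 7, without HF_5AzaD 7 it was 10 and without both it was 0, where the median was 0.29. With PBS alone against HF, 33 of the 63 rose, in a comparison where 10.7% of all loci were higher.

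Mitochondrial genes moved the same way. Of 66 tested genes for mitochondrial ribosomal proteins, 18 rose (27.3%, against 6.61% of all loci) and 0 fell (median 0.33). Among the 18 were Mrpl41 above, Mrpl32, by 0.55 (adjusted p = 0.00784), and Mrps21, by 0.75 (adjusted p = 0.0126). Of 72 nuclear genes for the respiratory chain and ATP synthase, 22 rose (30.6%) and 1 fell (1.39%, against 7.64% of all loci), with a median of 0.35. Ndufa12, a subunit of complex I, was at 23.3, 23.8, 23.8 and 23.1 FPKM in HF, a span of under 1 FPKM, and at 48.8, 34.7, 31.7 and 34.5 FPKM in HF_5AzaD. No injected library reached down to the HF values, and the gene rose by 0.64 ± 0.13 (adjusted p = 0.0127). The complex I genes Ndufa11, Ndufa6 and Ndufv2 rose by 0.65, 0.67 and 0.52. Sdha, the flavoprotein of complex II, was the gene that fell, at 126 to 139.6 FPKM in HF and 91.4 to 111 FPKM in HF_5AzaD (log2 difference -0.37, adjusted p = 0.0165). It did not pass without HF 6 (0.0605) or without HF_5AzaD 7 (0.0628), and Ndufv2 did not without HF 6 (0.051). Without HF 6 the counts of higher genes were 3 of 66 and 3 of 72, and without HF_5AzaD 7 they were 3 and 4. For PBS alone against HF, where 10.7% of all loci were higher, they were 29 and 34.

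Of 40 proteasome genes, 9 rose (22.5%, against 6.61% of all loci) and 1 fell (2.5%, against 7.64%), and the median was 0.20. Psmb6, a catalytic core subunit, was at 4.26, 4.33, 4.22 and 3.52 FPKM in HF and 9.54, 7.84, 6.30 and 12.5 FPKM in HF_5AzaD, so the lowest injected library was above the highest HF library. It rose by 1.02 ± 0.17 (adjusted p = 0.00689). Psma4 of the core rose by 0.51 and Psmd1 of the regulatory cap by 0.56, while Psmd2, also of the cap, fell by 0.31 (adjusted p = 0.0396, but 0.135 without HF 6 and 0.124 without HF_5AzaD 7). The count of higher genes was 3 without HF 6 and 3 without HF_5AzaD 7. It was 14 in HF_PBS against HF, where 10.7% of all loci were higher. Of 38 oxidative stress genes, 9 rose (23.7%, against 6.61% of all loci) and 0 fell, with a median of 0.27. Gstm1, a glutathione transferase, was at 61.4, 37.4, 78.5 and 51.2 FPKM in HF and 81.5, 142, 105 and 223 FPKM in HF_5AzaD, where HF_5AzaD 7 was the highest, and rose by 1.21 ± 0.30 (adjusted p = 0.021). The peroxiredoxin Prdx1 rose by 0.88, Gpx8, a peroxidase of the endoplasmic reticulum, by 0.60 and the transferase Gstk1 by 0.43. None of the 38 passed without HF 6 or without HF_5AzaD 7 (adjusted p from 0.0602 to 0.0959 for these 4 genes). Of 17 glycolysis genes, Gapdh rose by 0.91 ± 0.15 (adjusted p = 0.00689) and passed in every fit that left out 1 library, while Eno1 rose and Pfkfb2 fell in the fit of all libraries but not without HF 6 or without HF_5AzaD 7 (adjusted p from 0.103 to 0.118). The shares of the glycolysis list were 11.8% higher and 5.88% lower, against 6.61% and 7.64% of all loci.

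**Figure D2:**
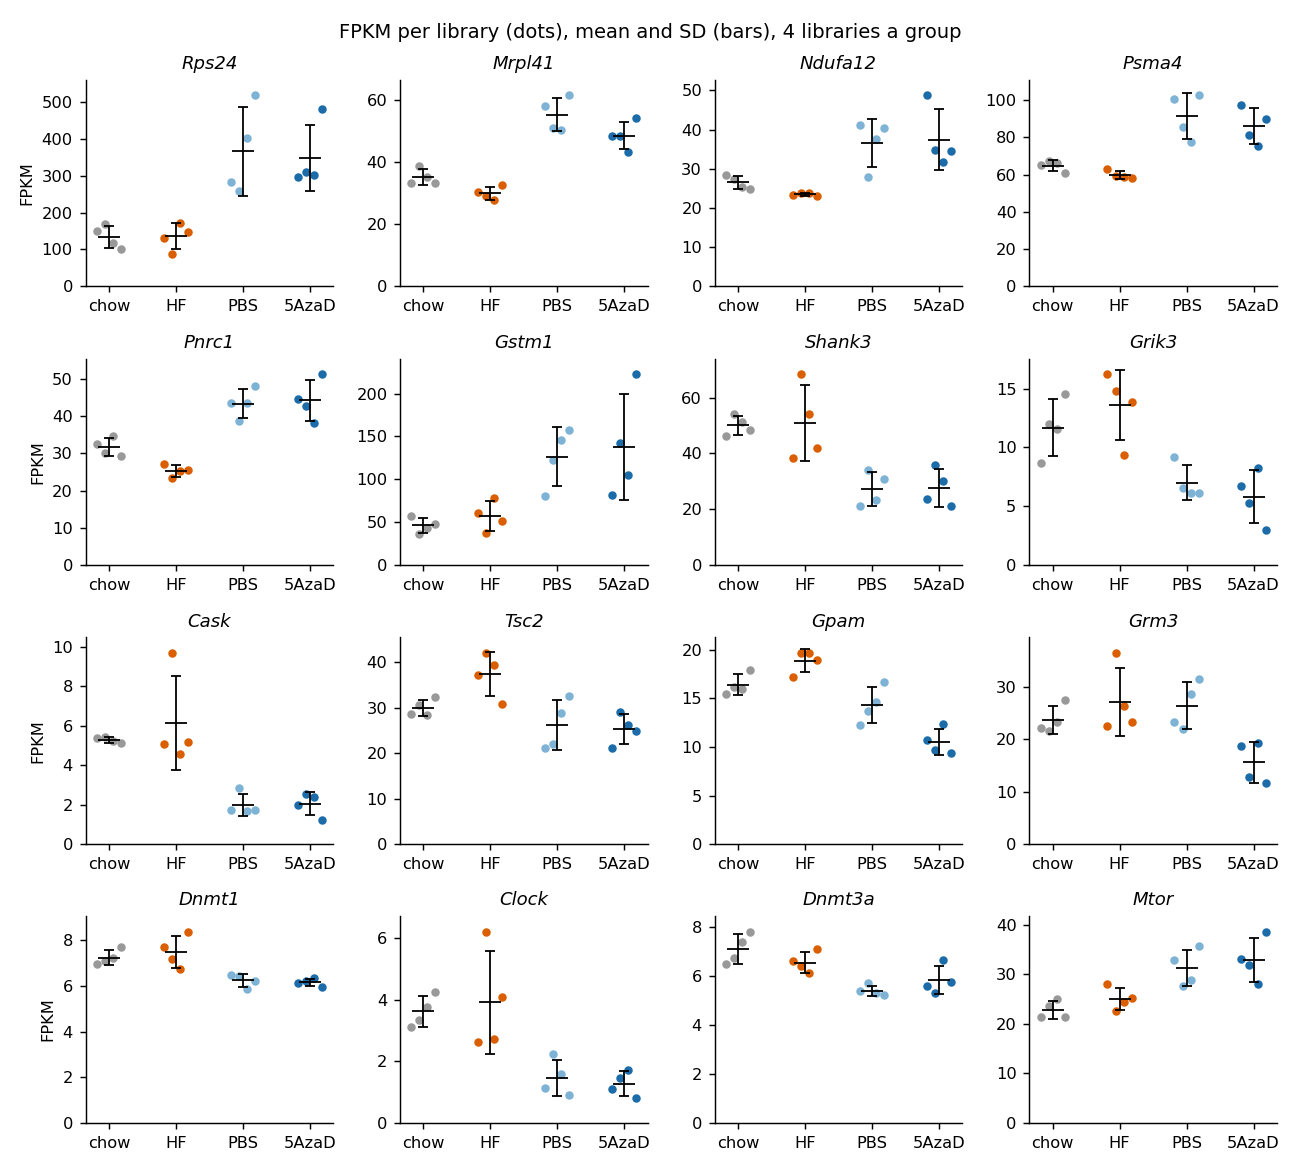
FPKM of 16 genes in each library (dots), with the mean and SD of 4 libraries a group, for chow, HF, HF_PBS (PBS) and HF_5AzaD (5AzaD). In Gpam the HF_5AzaD libraries lie lowest, in Grm3 the HF_PBS libraries lie with HF, and in 12 of the 16 panels, Gpam included, each injected group lies apart from HF.

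Genes of the postsynaptic side were called lower more often than all loci. Of 33 tested genes for postsynaptic scaffolds and calcium/calmodulin kinases (36 listed), 8 fell and 0 rose, 24.2% against 7.64% of all loci, with a median of -0.41. Shank3, which anchors glutamate receptors to the cytoskeleton, was at 38.3, 68.5, 54.2 and 42.1 FPKM in HF and 23.7, 35.9, 30.05 and 21.03 FPKM in HF_5AzaD. HF 6 was the highest library, the groups did not overlap, and Shank3 fell by 0.86 ± 0.20 (adjusted p = 0.0172). Its relatives Shank1 and Shank2 fell by 0.96 (adjusted p = 0.0213) and 1.66 (adjusted p = 0.00877), and Agap2, a GTPase regulator that binds PI3-kinase, by 0.55 (adjusted p = 0.0268). Dlg1, Dlg2 and Nlgn2 were also among the genes called. Without HF 6 or without HF_5AzaD 7, 1 of the 33 passed, which was Shank2 in both (adjusted p = 0.0232 and 0.0362), and without both libraries 0 passed and the median was -0.17. With PBS alone, 18 of the 33 fell against HF, in a comparison where 13.2% of all loci were lower.

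On the presynaptic side, 4 of 51 tested vesicle and SNARE genes fell (7.84%), near the share over all loci, and 0 rose. Syt11, a synaptotagmin, fell by 0.55, Unc13a, which primes vesicles, by 0.84 and Erc1 of the active zone by 0.51, and these 3 did not pass without HF 6 or without HF_5AzaD 7 (adjusted p from 0.0698 to 0.0943). Cask, a scaffold kinase of the presynaptic membrane, was at 5.05, 9.69, 4.58 and 5.19 FPKM and 1.99, 2.55, 2.39 and 1.23 FPKM. HF 6 stood far above the other HF libraries, which themselves lay above all HF_5AzaD libraries, and Cask fell by 1.36 ± 0.22 (adjusted p = 0.00689, and 0.0311 without both HF 6 and HF_5AzaD 7). Rims4, a presynaptic regulator of exocytosis, fell by 1.32 (adjusted p = 0.0118).

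Among glutamate receptor genes, 4 of 18 ionotropic subunits fell (22.2%, against 7.64% of all loci) and 1 rose (5.56%, against 6.61%). Grik3, a kainate receptor subunit, was at 16.2, 14.8, 9.40 and 13.9 FPKM in HF and 6.74, 5.31, 8.24 and 3.02 FPKM in HF_5AzaD, without overlap, and fell by 1.20 ± 0.25 (adjusted p = 0.0127). The delta receptor gene Grid1 fell by 0.73, Grin2c also passed, and the AMPA receptor gene Gria4 rose by 0.48 (adjusted p = 0.0322). Of the 5 genes called, Grik3 alone passed without HF 6 (0.0468) and without HF_5AzaD 7 (0.0398). Of 6 metabotropic receptor genes, 1 fell (16.7%, against 7.64% of all loci), which was Grm3. It was at 22.4, 36.5, 26.3 and 23.2 FPKM in HF and 18.7, 12.8, 19.3 and 11.7 FPKM in HF_5AzaD, where HF_5AzaD 5 and 7 were lowest and HF 6 was highest. Grm3 fell by 0.78 ± 0.19 (adjusted p = 0.0181, but 0.065 without HF 6 and 0.069 without HF_5AzaD 7).

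The difference of Grm3 between HF_PBS and HF was -0.03 (adjusted p = 0.93), and that between the injected groups was -0.76 (adjusted p = 0.586, unadjusted 0.00105). For 3 genes of deep cortical layers too, the HF_PBS mean lay above that of HF_5AzaD. Nxph3, a neurexin ligand, averaged 40.2 FPKM in HF, 28.7 FPKM in HF_PBS and 13.5 FPKM in HF_5AzaD and fell by 1.57 (adjusted p = 0.0261). Tle4, a corepressor of corticothalamic neurons, averaged 19.7, 18.4 and 11.8 FPKM and fell by 0.71 (adjusted p = 0.0254), and the sulfatase Sulf2 averaged 42.7, 34.1 and 25.5 FPKM and fell by 0.75 (adjusted p = 0.0236). None of these 4 passed without HF 6 or without HF_5AzaD 7 (adjusted p from 0.0519 to 0.088), and their differences between the injected groups did not pass (adjusted p from 0.586 to 0.644). HF_PBS 2, 3 and 4 also had the higher striatal sums given above, whose part in these values was not tested. In all, 4 of 21 deep layer genes fell (19%, against 7.64% of all loci), with Grik3 as the fourth. Of 14 upper layer genes, Inhba fell (7.14%) and Calb1 rose by 0.70 (adjusted p = 0.0436), and neither passed without HF 6 or without HF_5AzaD 7 (adjusted p from 0.0712 to 0.12). Calb1 passed in 1 of the 8 fits that left out 1 library, and the lists of the layers were not tested against each other.

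Of 54 potassium channel genes, 4 fell and 0 rose (7.41%), a share close to that of all loci, although 50 of the 54 differences were negative and their median was -0.37. Kcnh7, of the Erg family, was at 4.23, 21.5, 5.33 and 5.67 FPKM in HF and 2.63, 1.12, 3.54 and 0.822 FPKM in HF_5AzaD. HF 6 lay far above the other HF libraries, and the fall of 1.78 ± 0.47 (adjusted p = 0.0261) did not pass without it (0.0816) or without HF_5AzaD 7 (0.0944). The leak channel gene Kcnk3 fell by 1.04, with Kcnab2 and Kcnj10 as the other two, and these 3 were also lost without either library. Of 13 GABA receptor genes 1 fell, Gabrg3 by 1.18 (adjusted p = 0.0189), and 1 of 30 sodium and calcium channel genes (Cacna1i) and 2 of 27 monoamine and related receptor genes (Adra1a and Htr6) did so. The shares were 7.69%, 3.33% and 7.41%, against 7.64% of all loci. None of these 4 passed without HF 6 or without HF_5AzaD 7 (adjusted p from 0.058 to 0.124).

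**Figure D3:**
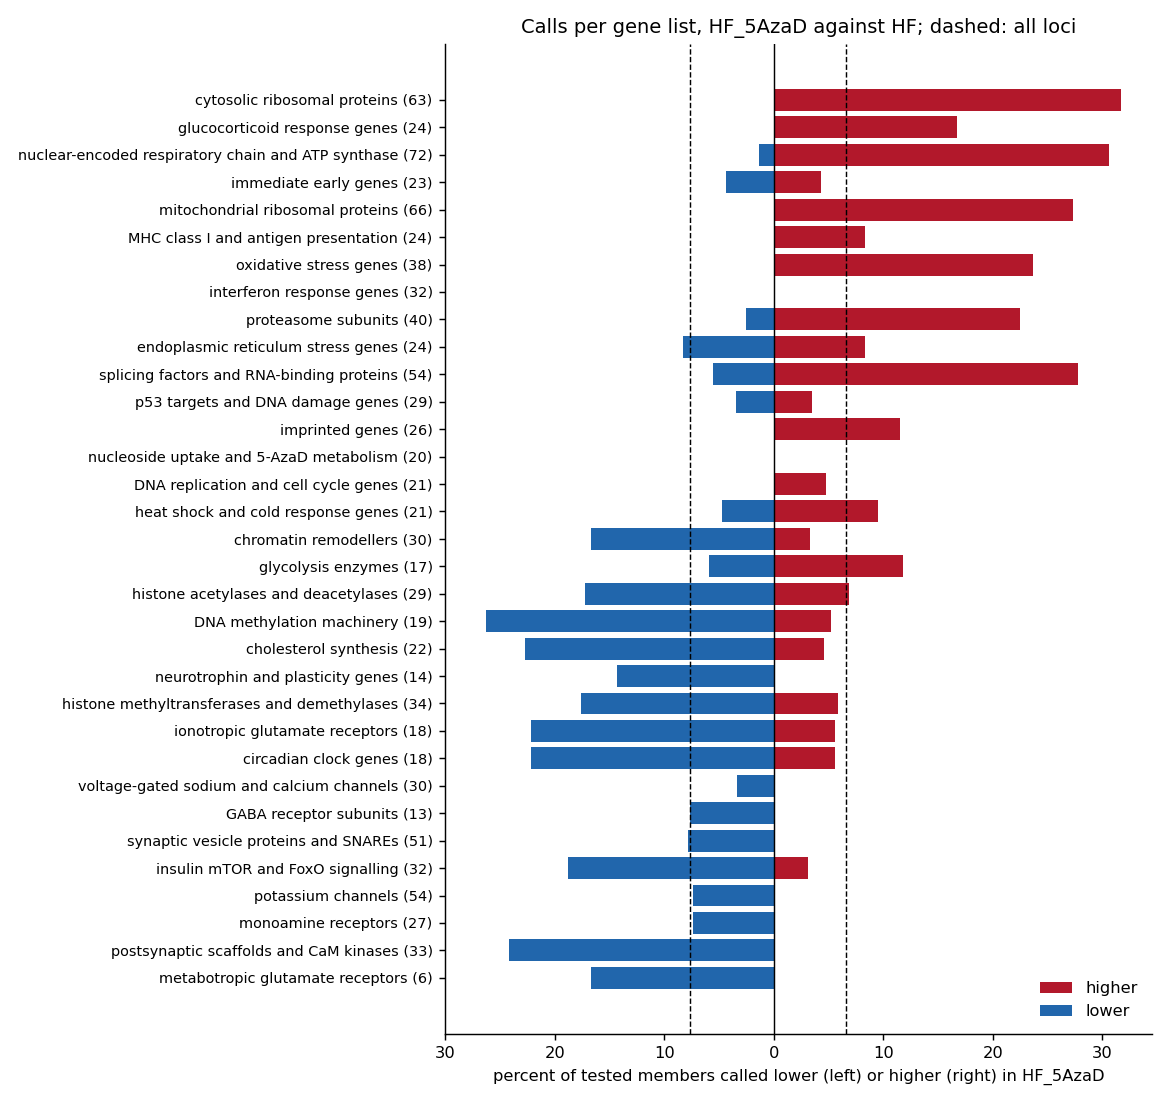
Share of the tested members of each gene list that were called higher (red, to the right) or lower (blue, to the left) in HF_5AzaD than in HF, with the number tested in parentheses, ordered by the list's median log2 difference. Dashed lines mark the shares over all loci, 6.61% higher and 7.64% lower. Ribosomal, respiratory chain, splicing and oxidative stress genes extend furthest to the right, and DNA methylation, scaffold and cholesterol genes furthest to the left.

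Insulin and mTOR signalling genes fell in 6 of 32 cases (18.8%, against 7.64% of all loci). They rose in 1 (3.12%, against 6.61%), and the median was -0.36. Tsc1 and Tsc2 form the complex that restrains mTOR. Tsc2 was at 37.2, 42.1, 39.5 and 30.8 FPKM in HF and 21.2, 29.02, 26.2 and 24.8 FPKM in HF_5AzaD, the groups lay apart, and it fell by 0.55 ± 0.14 (adjusted p = 0.0228). Tsc1 fell by 0.49 (adjusted p = 0.0236) and Eif4ebp2, a translation inhibitor that mTOR switches off, by 0.95 (adjusted p = 0.0167). Akt1, Foxo3 and Pdpk1 were the other 3. Mtor itself ranged over 22.7 to 28.1 FPKM in HF and 27.98 to 38.7 FPKM in HF_5AzaD, which overlap, and rose by 0.38 ± 0.11 (adjusted p = 0.0348). None of the 7 passed without HF 6 or without HF_5AzaD 7 (adjusted p from 0.0568 to 0.121 for the 4 with values here). With PBS alone, 14 of the 32 fell and 1 rose against HF, where 13.2% of all loci were lower and 10.7% higher.

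Among 22 genes of cholesterol synthesis and its control, 5 fell (22.7%, against 7.64% of all loci) and 1 rose (4.55%, against 6.61%). Srebf2, the transcription factor that switches the pathway on, was at 55.04, 69.9, 54.5 and 49.7 FPKM in HF and 43.03, 42.8, 42.95 and 38.9 FPKM in HF_5AzaD, without overlap, and fell by 0.44 ± 0.11 (adjusted p = 0.0239). The synthesis enzyme gene Lss fell by 0.69 (adjusted p = 0.0228), Sc5d also passed, and Nsdhl, another enzyme of the pathway, rose by 0.45 (adjusted p = 0.022). The list's median was -0.10, and none of its genes passed without HF 6 or without HF_5AzaD 7 (adjusted p from 0.0566 to 0.0828 for the 3 with values here).

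The DNA methylation machinery holds the targets of 5-AzaD and the proteins that read its mark. Of 19 tested genes (28 listed), 5 fell (26.3%, against 7.64% of all loci) and 1 rose (5.26%, against 6.61%), with a median of -0.07. Dnmt1 was at 7.70, 7.19, 6.74 and 8.38 FPKM in HF and 6.11, 6.22, 6.33 and 5.97 FPKM in HF_5AzaD. All injected libraries were below all HF libraries, though by little, and Dnmt1 fell by 0.26 ± 0.08 (adjusted p = 0.0367). It did not pass without HF 5, HF 6, HF 8, HF_5AzaD 3 or HF_5AzaD 7, and in HF_PBS it averaged 6.24 ± 0.285 FPKM (SD, n = 4) against 6.16 ± 0.154 FPKM (SD, n = 4) in HF_5AzaD. The locus that merges Uhrf1, the partner of Dnmt1, with its neighbour Fem1a was at 13.5, 18.6, 14.6 and 18.3 FPKM in HF and 9.17, 10.8, 10.4 and 8.15 FPKM in HF_5AzaD. The groups lay apart, and the locus fell by 0.72 ± 0.12 (adjusted p = 0.00689), also in all 8 fits that left out 1 library, but Uhrf1 and Fem1a cannot be told apart in it.

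The gene of the methyl-CG reader Mbd1 fell by 0.38 and Hells, a remodeller needed for methylation, by 0.70, and Gadd45b, linked to demethylation, rose by 0.63, and these 3 did not pass without HF 6 or without HF_5AzaD 7 (adjusted p from 0.116 to 0.154). Dnmt3a, the main de novo methyltransferase of the brain, was at 6.58, 6.37, 6.10 and 7.07 FPKM in HF and 5.59, 5.31, 6.65 and 5.74 FPKM in HF_5AzaD, overlapping ranges with a difference of -0.16 (95% interval -0.34 to 0.03, adjusted p = 0.227). Mbd2, another reader, differed by 0.19 (interval -0.01 to 0.38, adjusted p = 0.17). In HF_PBS against HF, 6 of the 19 fell and 4 rose, where 13.2% of all loci were lower and 10.7% higher. Between the injected groups 0 of the 19 differed.

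Germline and imprinted genes were examined as classical readouts of DNA demethylation. Of 22 listed germline genes 17 were in the table and 1 reached the tested level, so that this list could give at most 1 call. That gene did not pass, while Tex101 and Asz1 were at 0 in all 8 libraries. Of 26 tested imprinted genes, 3 rose (11.5%, against 6.61% of all loci) and 0 fell. Gnas, which encodes the stimulatory G protein subunit, was at 1199, 932, 1034 and 797 FPKM in HF and 1685, 1686, 1196 and 2010.1 FPKM in HF_5AzaD. HF 5 lay just above HF_5AzaD 6, the only overlap, and Gnas rose by 0.72 ± 0.17 (adjusted p = 0.0171), with 0.69 in HF_PBS against HF. Commd1, of copper and NF-kB control, rose by 0.47 and Sgce, a sarcoglycan, by 0.33. All 3 missed the threshold without HF 6 or without HF_5AzaD 7 (adjusted p from 0.0592 to 0.0943). Igf2, an imprinted growth factor that is also on the list of meningeal and mural markers, was at 6.38, 16.8, 14.7 and 15.7 FPKM in HF and 25.7, 44.99, 47.3 and 155 FPKM in HF_5AzaD and did not pass (2.06, adjusted p = 0.0807). It is named here after its values were seen. Its part in the higher meningeal signal was not tested. None of 32 interferon response genes passed in limma (median 0.24, 5 at an unadjusted p under 0.05), nor did any of 20 genes of nucleoside uptake and 5-AzaD metabolism (2). Dck, the kinase that activates the drug, ranged over 16.8 to 40.5 FPKM in HF and 6.68 to 33.5 FPKM in HF_5AzaD, and the nucleoside transporter gene Slc29a1 over 2.41 to 4.23 and 2.72 to 4.05 FPKM, with adjusted p of 0.321 and 0.998.

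Of 24 MHC class I and antigen presentation genes, 2 rose (8.33%, against 6.61% of all loci) and 0 fell. The 2 were the chaperones Pdia3, by 0.37, and Calr, by 0.29, which also serve protein folding in general. Of 29 p53 and DNA damage genes, 1 rose and 1 fell (3.45% each, against 6.61% higher and 7.64% lower of all loci). The checkpoint kinase gene Chek1 ranged over 0.586 to 0.998 FPKM in HF and 1.24 to 1.97 FPKM in HF_5AzaD and rose by 0.63 ± 0.15 (adjusted p = 0.0197). Its HF libraries were all under the filter of 1 FPKM. The p53 target Zmat3 fell by 0.50 (adjusted p = 0.0252). Cdkn1a, the p53 target that halts the cell cycle, was at 6.86, 5.53, 6.22 and 6.87 FPKM in HF and 10.9, 5.29, 7.26 and 11.7 FPKM in HF_5AzaD. HF_5AzaD 3 and 7 were high and HF_5AzaD 5 lay under all HF libraries (0.38, adjusted p = 0.27). Of 21 replication and cell cycle genes 1 rose (4.76%, against 6.61% of all loci), a locus that merges Rb1 with Itm2b. None of these called genes passed without HF 6 or without HF_5AzaD 7 (adjusted p from 0.0563 to 0.11).

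Chromatin and RNA processing genes changed in both directions. Of 34 histone methyltransferase and demethylase genes, 6 fell (17.6%, against 7.64% of all loci) and 2 rose (5.88%, against 6.61%). Kdm3a, which removes methyl groups from histone H3 lysine 9, ranged over 8.54 to 10.6 FPKM in HF and 13.2 to 15.2 FPKM in HF_5AzaD and rose by 0.53 ± 0.09 (adjusted p = 0.00759), also in all 8 fits that left out 1 library. Ehmt1, which adds methyl groups to the same residue, fell by 0.58 (adjusted p = 0.0183), and Smyd2, a lysine methyltransferase, rose by 0.62 (adjusted p = 0.0232), with 0.16 in HF_PBS against HF. Of 29 acetylase and deacetylase genes 5 fell and 2 rose (Hdac1 and Kat2a), and of 30 remodeller genes 5 fell and 1 rose (Smarcd2). These were 17.2% and 16.7% lower, against 7.64% of all loci, and 6.9% and 3.33% higher, against 6.61%. Chd5, a neuronal remodeller, was at 40.4, 61.9, 30.1 and 33.3 FPKM in HF and 17.3, 19.5, 17.3 and 13.1 FPKM in HF_5AzaD, far apart, and fell by 1.23 ± 0.24 (adjusted p = 0.01). Smarcc1, a subunit of the BAF complex, fell by 0.47 and Ino80, a remodelling ATPase, by 0.32. Without HF 6 or without HF_5AzaD 7 the genes called lower in the 3 lists were 0, 2 and 2 and those called higher 1, 0 and 0. Ehmt1, Smyd2 and Ino80 were among those lost (adjusted p from 0.064 to 0.0849).

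Of 54 splicing and RNA-binding genes, 15 rose (27.8%, against 6.61% of all loci) and 3 fell (5.56%, against 7.64%). Tra2b, a splicing activator, was at 11.8, 9.40, 10.7 and 12.3 FPKM in HF and 17.5, 15.8, 15.1 and 18.99 FPKM in HF_5AzaD, without overlap, and rose by 0.59 ± 0.11 (adjusted p = 0.00936). Its relative Tra2a rose by 0.52 and Hnrnpu, a nuclear RNA scaffold protein, by 0.39. The neuronal splicing regulator Rbfox2 was at 26.8, 47.4, 21.3 and 31.6 FPKM in HF and 8.27, 19.8, 13.4 and 10.3 FPKM in HF_5AzaD and fell by 1.27 (adjusted p = 0.0197), while Mbnl1 fell by 0.86 and Son by 0.58. Without HF 6 the list kept 3 higher genes and without HF_5AzaD 7 it kept 2, with 0 lower in both. Hnrnpu was lost in both (0.0517 and 0.0532).

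Injection and handling can be stressful, and stress genes were examined by list. Of 24 glucocorticoid response genes, 4 rose (16.7%, against 6.61% of all loci) and 0 fell, with a median of 0.44. Cebpb, a transcription factor, was at 1.89, 0.876, 1.05 and 1.39 FPKM in HF and 8.94, 3.47, 2.11 and 4.13 FPKM in HF_5AzaD, low values led by HF_5AzaD 3, and rose by 1.39 ± 0.38 (adjusted p = 0.028). Its relative Cebpd rose by 0.96, the sulfotransferase gene Sult1a1 by 1.40 and the NF-kB inhibitor gene Nfkbia by 0.88, and none of the 4 passed without HF 6 or without HF_5AzaD 7 (adjusted p from 0.062 to 0.126). Fkbp5, a glucocorticoid receptor chaperone and a common readout of the hormone, did not pass, at 12.7 to 19.8 FPKM in HF and 10.1 to 15.8 FPKM in HF_5AzaD (-0.27, adjusted p = 0.28). In HF_PBS against HF, 7 of the 24 rose, where 10.7% of all loci were higher.

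Immediate early genes of neuronal activity varied widely within groups. Fos was at 6.64, 4.05, 6.98 and 30.2 FPKM in HF and 7.08, 10.9, 23.5 and 34.05 FPKM in HF_5AzaD, with HF 8 second to HF_5AzaD 7 (adjusted p = 0.34), and Arc ranged over 17.7 to 91.8 and 25.7 to 145 FPKM (adjusted p = 0.437). Of 23 such genes, Jund rose by 0.43 and Fosl2 fell by 1.00 (4.35% each, against 6.61% higher and 7.64% lower of all loci). Bdnf, the neurotrophin, was at 9.90, 4.76, 4.93 and 4.44 FPKM in HF and 5.75, 5.31, 6.27 and 8.21 FPKM in HF_5AzaD, where HF 5 was the highest of the 8 (0.14, adjusted p = 0.771). Of 14 neurotrophin and plasticity genes, Sort1 and Crtc1 fell (14.3%, against 7.64% of all loci). None of these 4 called genes passed without HF 6 or without HF_5AzaD 7 (adjusted p from 0.0666 to 0.143). Of 18 clock genes 4 fell (22.2%, against 7.64% of all loci) and 1 rose (5.56%, against 6.61%). Clock itself was at 2.64, 6.22, 2.74 and 4.10 FPKM in HF and 1.10, 1.47, 1.73 and 0.813 FPKM in HF_5AzaD, without overlap, and fell by 1.27 ± 0.26 (adjusted p = 0.0114), also in all 8 fits that left out 1 library. Of the 5, it alone passed without HF 6 or without HF_5AzaD 7. Cry2, a repressor of the clock, fell by 0.48 and its kinase gene Csnk1e by 0.43, with Nr1d2 as the fourth, and Nfil3 rose by 0.50. Hours of collection are not given in the sources used here. Among heat shock and cold genes Hspa2 and Rbm3 rose and Hspa8 fell, 3 of 21 (9.52% higher and 4.76% lower, against 6.61% and 7.64% of all loci). Among 24 genes of the endoplasmic reticulum stress response Calr and Pdia3 rose and the sensors Ern1 and Atf6 fell, by 0.51 and 0.45 (8.33% in each direction). None of these 7 passed without HF 6 or without HF_5AzaD 7 (adjusted p from 0.0563 to 0.153).

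**Figure D4:**
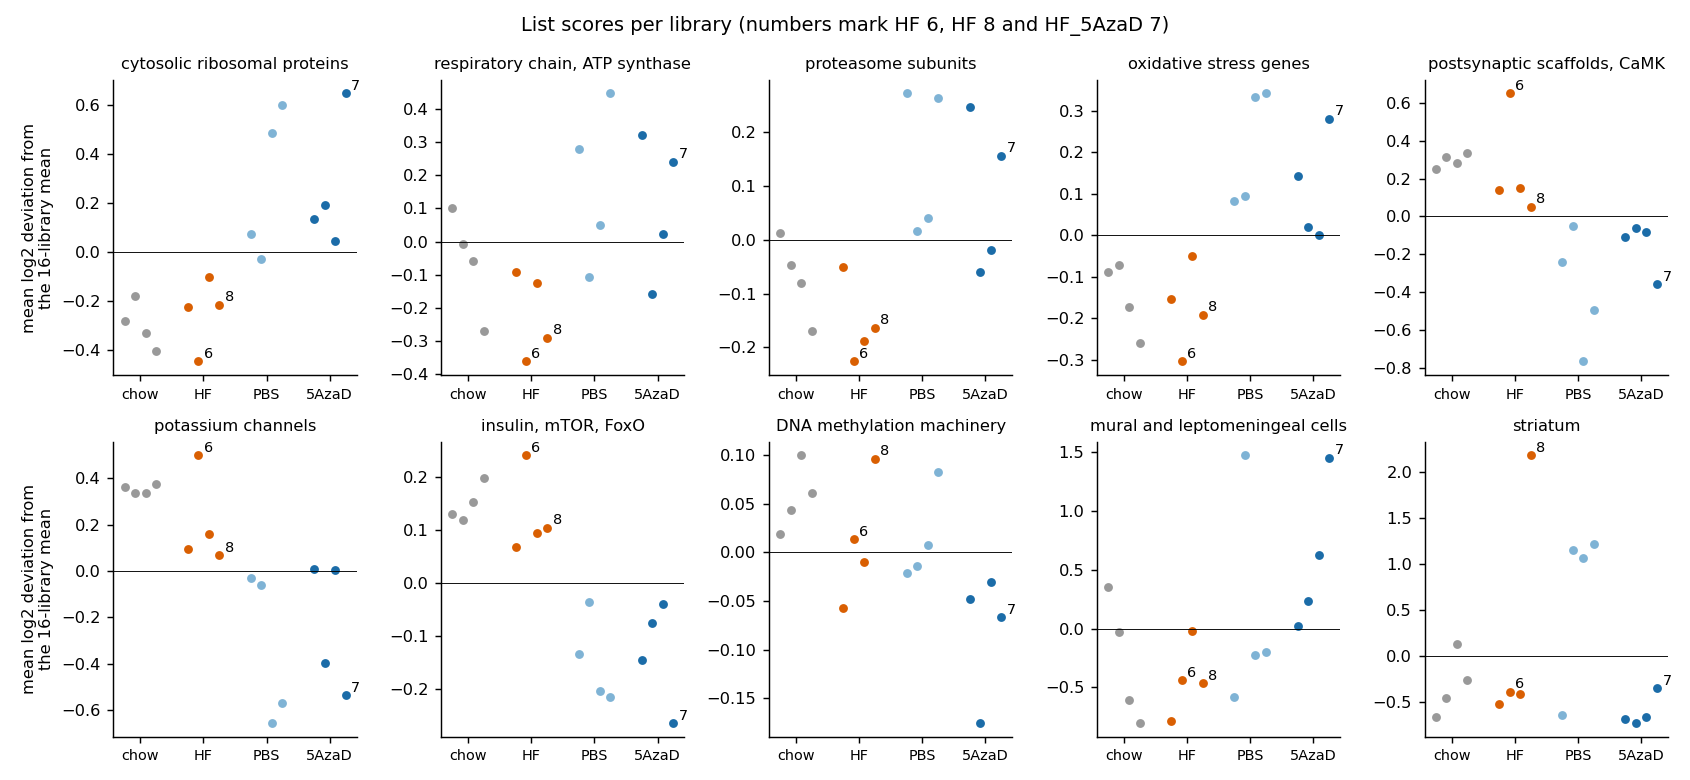
List score of each library, which averages over a list's tested members how far each lay from its own 16-library mean in log2 units, for 10 lists and the 4 groups, with HF 6, HF 8 and HF_5AzaD 7 numbered. HF 6 and HF_5AzaD 7 sit at opposite ends of the 16 libraries in the cytosolic ribosomal and insulin panels, HF 6 is highest and HF_PBS 3 lowest in the potassium channel panel, and HF 8 and HF_PBS 2, 3 and 4 stand above the rest in the striatum panel.

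The largest changes among genes with a symbol were mostly at low FPKM. Pcsk1n, the precursor of a proSAAS peptide that inhibits prohormone convertase, was at 0.226, 0.139, 0.457 and 0.067 FPKM in HF and 8.09, 7.38, 8.20 and 9.85 FPKM in HF_5AzaD. All HF libraries were under 0.5 FPKM and all HF_5AzaD libraries above 7 FPKM, a rise of 3.64 ± 0.69 (adjusted p = 0.00945), with 3.24 in HF_PBS against HF. At its HF level the locus missed the filter of 1 FPKM, so it was tested only through groups where it was higher. The table gives Pcsk1n 2 tested loci, both called higher. Ccl19, a chemokine, rose by 2.27, S100a11, a calcium-binding protein, by 2.02, the ribosomal gene Rps29 by 1.59, Enpep, a peptidase of vessels and pericytes, by 1.55, Cfd, complement factor D, by 1.55, Pln, phospholamban of muscle, by 1.48, Slc13a3, a dicarboxylate carrier, by 1.41 and Ly96, a partner of the endotoxin receptor, by 1.39. HF_5AzaD 7 was the highest library in 7 of these 8, and of the 8 only Cfd passed in every fit that left out 1 library. Without HF 6 the other 7 missed the threshold, and without HF_5AzaD 7 all of them but Rps29 (0.0453).

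In the other direction, Exoc8, a subunit of the exocyst that tethers secretory vesicles, was at 4.33, 10.8, 4.67 and 6.43 FPKM in HF and at 2.06 FPKM in HF_5AzaD 3, and it was listed at 0 in HF_5AzaD 5, 6 and 7 (adjusted p = 0.00877). Nr2c2, an orphan nuclear receptor, was at 10.6, 27.03, 12.4 and 16.4 FPKM in HF and 3.11, 7.98, 4.30 and 3.12 FPKM in HF_5AzaD, with HF 6 highest in its group, and fell by 1.74 ± 0.31 (adjusted p = 0.00784). Hcfc1, a chromatin cofactor, fell by 1.51, Extl3, an enzyme of heparan sulfate synthesis, by 1.33, Lifr, the receptor of leukaemia inhibitory factor, by 1.31, Gfod1 by 1.79 and Tmem151b by 1.41. All of these passed in each fit that left out 1 library, whereas Mgat5, a glycan-branching enzyme (-1.49), Mgll, which degrades the endocannabinoid 2-AG (-1.38), and Chrna5, a nicotinic receptor subunit (-1.53), did not pass without HF 6 or without HF_5AzaD 7 (adjusted p from 0.0529 to 0.142).

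Loci that hold microRNA genes were also in the table. The libraries were made from poly-A RNA, so these values report host or precursor transcripts and not the mature microRNAs. Of 66 such loci tested, 8 were called higher (12.1%, against 6.61% of all loci) and 4 lower (6.06%, against 7.64%). A locus with an HF mean under 1 FPKM could be tested only if another group was higher, which favours calls of higher. The part of this filter in the shares was not tested. The pairs below are examples of microRNAs that share a seed and a locus that was called higher. Another such pair, miR-410-5p and miR-496-5p, is not shown. Bases 2 to 8 from the 5′ end, the seed that pairs with target mRNAs, are in capitals. Sequences are from RefSeq on build GRCr8, plus strand, at chr10:60522091-60522112, chr10:60521811-60521832, chrX:6023246-6023268 and chrX:6022682-6022702.
miR-132-3p: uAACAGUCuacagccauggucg
miR-212-3p: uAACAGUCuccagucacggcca
miR-221-3p: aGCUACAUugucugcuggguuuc
miR-222-3p: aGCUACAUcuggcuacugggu

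The seed of miR-132-3p and miR-212-3p is the same, as is that of miR-221-3p and miR-222-3p. The Mir132 and Mir212 locus, induced by neuronal activity in many settings, was at 1.04, 0.319, 0.358 and 0.625 FPKM in HF and 1.11, 1.76, 1.97 and 2.93 FPKM in HF_5AzaD. The groups lay just apart, and the locus rose by 1.17 ± 0.28 (adjusted p = 0.0179), with 0.63 in HF_PBS against HF. The Mir221 and Mir222 locus ranged over 0.606 to 1.499 FPKM in HF and 1.67 to 2.12 FPKM in HF_5AzaD and rose by 0.73 (adjusted p = 0.0226). This locus and that of Mir132 and Mir212 averaged 0.931 and 0.584 FPKM in HF and 0.700 and 0.410 FPKM in chow. These means were under the filter of 1 FPKM, so both loci were tested only through the injected groups. Mir138-1 rose by 0.56 and Mir98, of the let-7 family, by 0.44, while Mir874 fell by 1.06, Mir129-2 by 1.00 and Mir190 by 0.38. Of the 7 loci, Mir874 alone passed both without HF 6 (0.0369) and without HF_5AzaD 7 (0.0384). They were named after their values were seen.

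Calls were set against the CG count of each gene's promoter, the 300 bases from 250 before to 50 after its start in RefSeq (GRCr8). The count gives how many CG dinucleotides a promoter holds and not whether they are methylated. Of 9855 symbols with 1 locus each, 8055 (81.7%) had a promoter sequence. The promoters below belong to a gene without much CG that fell, a CG-rich gene that fell, and a gene of intermediate CG that rose, with each CG, which reads the same on both strands, in capitals. They lie at chr1:264175862-264176161 (minus strand), chrX:11572386-11572685 (plus strand) and chr3:28179706-28180005 (minus strand).
Gpam: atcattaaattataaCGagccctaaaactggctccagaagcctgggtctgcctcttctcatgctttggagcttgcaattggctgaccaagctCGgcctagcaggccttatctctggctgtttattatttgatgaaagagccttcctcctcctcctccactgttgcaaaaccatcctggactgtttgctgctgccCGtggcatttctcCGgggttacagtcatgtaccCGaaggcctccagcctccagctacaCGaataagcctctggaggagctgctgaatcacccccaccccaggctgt
Cask: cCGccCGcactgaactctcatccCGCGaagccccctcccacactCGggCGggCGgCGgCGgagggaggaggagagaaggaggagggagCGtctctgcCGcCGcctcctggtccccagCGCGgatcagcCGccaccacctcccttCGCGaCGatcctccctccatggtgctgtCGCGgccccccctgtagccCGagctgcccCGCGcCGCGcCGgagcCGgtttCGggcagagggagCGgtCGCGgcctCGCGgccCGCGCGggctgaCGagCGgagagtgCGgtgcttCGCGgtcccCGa
Mrpl41: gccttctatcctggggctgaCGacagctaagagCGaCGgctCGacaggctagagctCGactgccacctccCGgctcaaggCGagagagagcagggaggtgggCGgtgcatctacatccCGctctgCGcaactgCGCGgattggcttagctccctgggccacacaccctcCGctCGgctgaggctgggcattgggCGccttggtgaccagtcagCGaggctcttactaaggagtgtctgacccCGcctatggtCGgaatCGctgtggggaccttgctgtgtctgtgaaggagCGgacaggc

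The windows hold 6, 42 and 20 CG. Over all genes the median was 21 CG, against 20 for genes called higher and 25 for genes called lower. Genes with 30 or more CG were called lower in 9.34% and higher in 5.24% of 1928 cases, and genes with 10 to 19 CG in 4.24% and 8.75% of 2216 cases. Of the 8055 genes with a promoter sequence, which are the like set for these classes, 485 were called lower and 545 higher. Over all loci, those without a symbol included, the shares were 7.64% lower and 6.61% higher. With 0 to 4 CG the shares were 5.71% lower and 3.21% higher of 560. The median GC content rose from 47% in the lowest class to 72% in the highest and the median level from 6.38 to 15.8 FPKM, so CG count, base composition and level vary together and their parts were not tested. In HF_PBS against HF, genes with 30 or more CG were called lower in 16.9% and higher in 10.1% of cases. Those with 10 to 19 CG were called lower in 8.66% and higher in 13.9%. Over all loci, those without a symbol included, that comparison had 13.2% lower and 10.7% higher. No methylation was measured in the files used here.

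**Figure D5:**
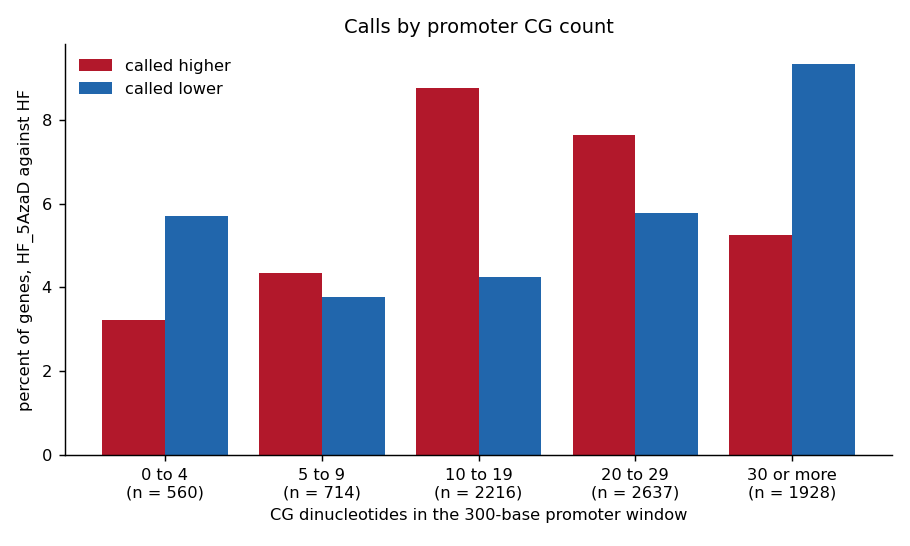
Share of genes called higher (red) or lower (blue) in HF_5AzaD than in HF, by the number of CG dinucleotides in the 300-base promoter window, with the number of genes under each class. The blue bar is tallest at 30 or more CG (9.34%) and the red bar at 10 to 19 CG (8.75%).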

How the data were processed

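Poly-A RNA of rat frontal cortex was sequenced in 16 libraries. The authors deposited FPKM values per assembled locus, with a status of the estimate. The rat build rn5 and the programs Cufflinks, Cuffdiff, Bowtie, TopHat, Bowtie2 and TopHat2 are named per the submitters' processing notes. How strand was used, the annotation and tool versions are not given in the sources used here. Overlapping antisense genes therefore cannot be told apart. All 16 value columns matched a title and 0 columns belonged to other samples.

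Values were used as deposited. Loci with a mean under 1 FPKM or a status other than OK were left out, and limma 3.58.1 in R 4.3.3 fitted 4 group means to log2(FPKM + 0.5) with a trended prior and 12 residual degrees of freedom. Fold changes are on that scale and understate changes of low genes. The filter used the mean of all 16 libraries. A locus that averaged under 1 FPKM in HF was therefore tested only if another group was higher. The log2 values and p-values are computed here from the FPKM values the authors deposited, with Benjamini-Hochberg adjustment over 14824 loci and a threshold of 0.05. FPKM values carry no counts, so no count model was run. The fit was tested on simulated data. Promoters and microRNAs are from RefSeq on GRCr8, and no coordinates of the deposited build are printed. Python 3.11.15, numpy 2.4.6, pandas 2.3.3 and matplotlib 3.10.9 were used.

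The comparison and the 50 gene lists were chosen with earlier results of these data known. Named genes are, per direction, the 15 largest changes among called loci with non-overlapping groups, up to 4 called members of each list by lowest p, and 12 fixed genes. Gpam, Pnrc1, Sarnp, Igf2, the microRNA loci and the list members that complete a count were named after their values were seen. Some members of the lists are counted but not reported here by name. A list member stands for its locus with the highest mean. Alternatives changed the pseudocount, the filters, the scaling, the weights, the libraries in the fit and the block.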

Additional observations from a re-analysis of the deposited data

Results flagged for a closer look

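For each gene with values above, the gap between the highest or lowest of the 4 libraries of a group and the nearest other was divided by the group's range in FPKM, and ratios above Dixon's 95% critical value for 4 values are given here. Chance gives about 1 in 20 groups, and 24 of 286 groups passed. In HF, library 6 stood apart in 11 genes. It was the lowest in Ndufa11 (0.856) and the highest in the others, Crtc1 (0.874), Unc13a (0.856), Kcnh7 (0.917), Cask (0.882), Tsc1 (0.84), Lss (0.965), Csnk1e (0.947), Mgat5 (0.879), Lifr (0.84) and Gpr17 (0.851). HF 8 stood apart in Psmb6 (0.859), Fos (0.888) and Pde10a (0.831), HF 5 in Bdnf (0.911) and HF 7 in Rps29 (0.899).

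In HF_5AzaD, library 7 stood apart in 6 genes, Igf2 (0.833), Rps24 (0.929), Srebf2 (0.938), Cebpd (0.93), Rps29 (0.914) and Ramp2 (0.945). It was the lowest in Srebf2 and the highest in the other 5. HF_5AzaD 3 stood apart in Exoc8 (1), where the other 3 libraries were listed at 0, and HF_5AzaD 6 in Lss (0.87).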

How the results depend on the processing

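Pseudocounts of 0.1 and 1, no filter or a filter of 5 FPKM, loci of any status, equal medians, quantile normalization and a robust prior left between 1668 and 2255 loci called. Array weights gave 1329 (559 higher), the 8 libraries alone 27 (10 higher, 17 lower), and leaving out HF 6 and HF_5AzaD 7 together, chosen after seeing the data, 30 (9 higher, 21 lower). Leaving out 1 library gave 395 to 2306 called, 150 to 1036 higher and 242 to 1281 lower. The lowest counts were without HF 6 (395) and HF_5AzaD 7 (400), followed by HF_5AzaD 3 (1174) and HF 8 (1273). With the replicate block 54 loci passed (15 higher, 39 lower). The groups share the numbers 5, 6 and 7, whose deviations correlated at -0.107, 0.0641 and 0.0346, and no library correlated best with its own number, so the numbers were not taken as pairs. No called locus changed direction in any alternative where it was tested. The files hold no counts and depth is known only in relative terms, so no limit of detection is given.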

Other observations

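Among 3791 tested loci without a gene symbol, 224 were called higher and 474 lower, against 756 higher and 658 lower of 11033 with one. At 8 symbols 1 locus was called higher and another lower: Parva, Evi5, Ppp2r2c, Supt16h, Dtnbp1, Pdxk, Magi2 and Mgll. Mgll averaged 109 FPKM in HF and 45.3 FPKM in HF_5AzaD at 1 locus and 4.74 FPKM and 28.8 FPKM at the other. Ppp2r2c, a subunit of protein phosphatase, averaged 228 FPKM and 119 FPKM at its main locus and 5.86 FPKM and 44.4 FPKM at the other. In 7 of the 8 the locus with more FPKM in HF was the one that fell, and in Dtnbp1 it rose. The values of these symbols depend on which locus is read.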
